A study of Mus musculus with 6 samples.

Results

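Glp2r, Ednra, Ednrb, F2r, F3, Adra2c, S1pr1 and S1pr3 are 8 of the 24568 genes counted in single cells of the fetal mouse intestine, and each codes for a protein through which a cell of the gut wall can sense a secreted signal. They were chosen from measured values, namely from their levels in sets of cells that the data file keeps apart by the ending of the cell barcode. Their levels in those sets are therefore a description and were not tested. Glp2r, Ednra and Ednrb code for receptors of peptide hormones, whereas the ligands of the others are a protease (F2r), a clotting factor (F3), catecholamines (Adra2c) and a lipid (S1pr1 and S1pr3).

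Endothelins are short peptides that endothelin-converting enzyme, the product of Ece1, cuts from precursors. They act on a receptor that prefers endothelin 1 (Ednra) and on one that binds all endothelins alike (Ednrb), and Ednrb is best known in the gut for its role in the migration of the neural crest cells that form the enteric nervous system. Glucagon-like peptide 2, made from the product of Gcg in epithelial endocrine cells, stimulates growth of the gut lining through a receptor (Glp2r) that lies in the mesenchyme and in enteric neurons, and growth factors of the mesenchyme such as Igf1 and Ereg relay the signal. Tissue factor (F3) starts blood clotting on the cell surface, and the thrombin that results cleaves and activates the receptor coded by F2r. Adra2c codes for the alpha-2C adrenergic receptor. S1pr1 and S1pr3 code for receptors of sphingosine 1-phosphate, a lipid of blood and lymph.

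The study took small intestine of C57/BL6 background from Pdgfra-H2BGFP embryos, in which the Pdgfra promoter drives a nuclear green fluorescent protein in mesenchymal cells, and all samples share this reporter. Embryos of 5 ages were cut into pieces of 2.5 mm: E13.5 (4 replicates, pooled), E14.5 (3 replicates) and, with 2 replicates per age, E15.5, E16.5 as well as E18.5. The 6 samples form 4 groups: 2 wells of live cells and 1 well of enriched cells from E15.5 and E16.5, and the same from E13.5, E14.5 and E18.5. Live cells lacked DAPI and Ter119 staining, and enriched cells were sorted for CD31, CD45, Epcam or a bright PDGFRA-GFP signal.

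The deposited matrix joins all samples, and no label ties any of its 6 barcode suffixes to a sample, an age or a piece of intestine. The suffixes are used here as technical sets, called A1, A2 and A3 for one suffix ending and B1, B2 and B3 for the other. After filtering, 12688 cells with 98942555 unique molecular identifiers (UMIs, each standing for 1 captured transcript) remained, with 1185 to 2518 cells per set. The median depth was 7073 to 13588 UMIs per cell in ending A and 3553 to 4189.5 in ending B, and 22 barcode sequences occurred in more than 1 set, 3 of them within 1 ending. Sets A3 and B3 stood apart from the other sets of their endings: Pdgfra was at 943 and 409 counts per 1000000 UMIs (CPM) there, against 106 to 173 CPM in the other 4 sets. With 1 pooled matrix there are no replicates, so no test was made, and every interval is a 95% interval that covers counting error only.

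Each of the 8 genes was detected in all 6 sets, and 6 of them were highest in A3. Ednrb stood at 199.7 CPM in A1, 177.8 in A2 and 1779 in A3, and at 404.9 in B1, 404.0 in B2 and 1672 in B3. A3 and B3 were thus far above the other sets of their endings, and B1 and B2 lay above A1 and A2. The log2 ratio of the third set to the first and second together was 3.23 (3.20 to 3.27) in ending A and 2.05 (2.01 to 2.09) in ending B. After every cell had been thinned to 2000 UMIs, Ednrb was found in 23.7%, 24.8% and 90.3% of A1, A2 and A3 cells and in 38.1%, 38.7% and 92.2% of B1, B2 and B3 cells. Without thinning these shares were 65.9%, 66.1%, 97.6%, 49.7%, 49.7% and 97.0%. At equal depth, few A3 and B3 cells lacked an Ednrb transcript. Thinning left out 1 to 13 cells per set.

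**Figure D1:**
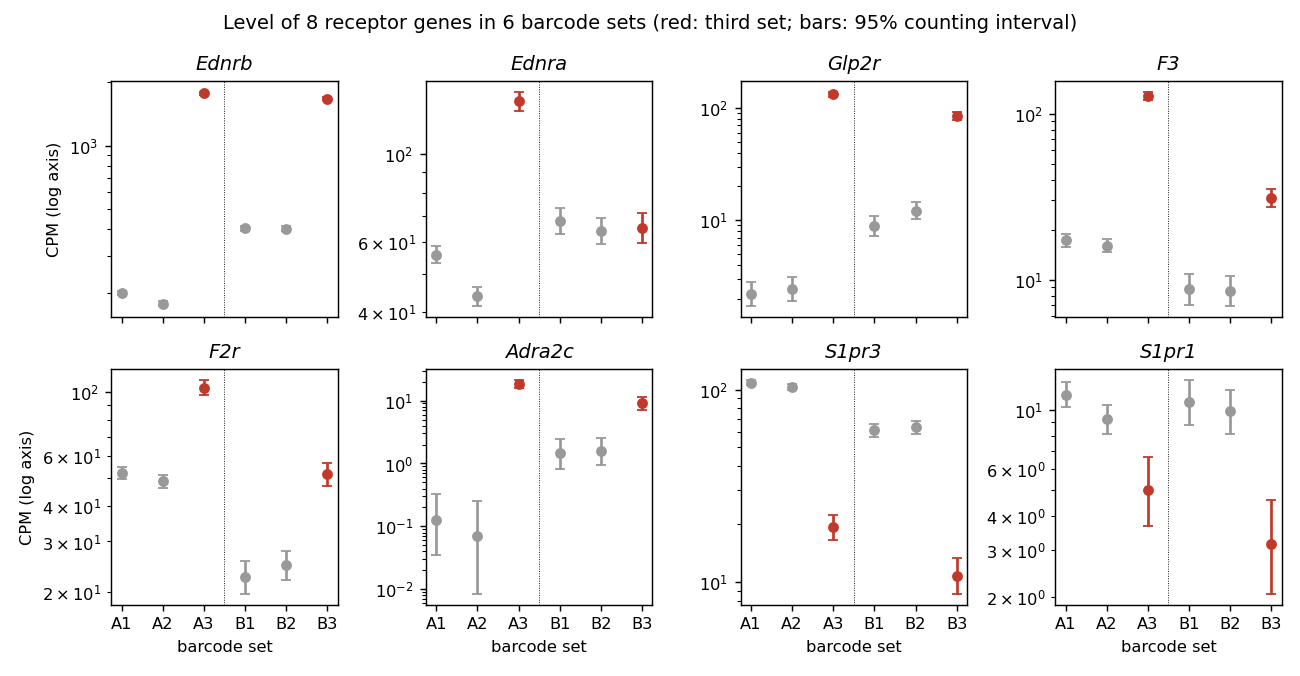
Level of each gene in CPM (log axis, different for each gene) in the 6 barcode sets, with A3 and B3 in red and bars giving the 95% Poisson interval of the count. Glp2r, Ednrb, F3, F2r and Adra2c were highest in the third set of both endings, S1pr3 and S1pr1 lowest, and Ednra was highest in A3 alone.

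Ednra, the other endothelin receptor gene, did not follow Ednrb in both endings. It was at 55.9 CPM in A1, 43.9 in A2 and 135.7 in A3, but at 68.0 in B1, 64.1 in B2 and 65.3 in B3. Its log2 ratio was 1.44 (1.34 to 1.53) in ending A and -0.01 (-0.16 to 0.13) in ending B, so that only A3 lay above its companions. Counted as Ednrb UMIs per Ednra UMI, the balance of the pair was 3.57, 4.05 and 13.1 across A1, A2 and A3, and 5.96, 6.30 and 25.6 across B1, B2 and B3. A3 and B3 held the largest ratios of their endings. Because tags were counted at transcript ends and not per length, such a ratio is compared here between sets and not read as a ratio of transcripts.

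Glp2r had one of the widest ranges. It stood at 2.22 CPM in A1, 2.46 in A2 and 131.7 in A3, and at 8.95 in B1, 12.2 in B2 and 84.7 in B3. Its log2 ratios were 5.82 (5.56 to 6.08) and 2.99 (2.77 to 3.21). In cells thinned to 2000 UMIs it was found in 0.446%, 0.719% and 22.8% of cells of A1, A2 and A3, and in 2.17%, 2.95% and 15.1% of cells of B1, B2 and B3. Unthinned, those shares were 1.90%, 1.82%, 52.9%, 3.59%, 4.53% and 23.7%. Adra2c was close to undetected in A1 and A2, with 4 and 2 UMIs, and stood at 18.4 CPM in A3, where 173 UMIs were counted. In ending B it was at 1.48, 1.60 and 9.07 CPM. Its log2 ratios were 7.52 (6.37 to 8.99) and 2.56 (1.95 to 3.19), the former resting on 6 UMIs in the lower sets.

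Tissue factor (F3) and its downstream thrombin receptor (F2r) were also higher in A3 and B3. F3 was at 17.2 CPM in A1, 16.0 in A2 and 128.1 in A3, and at 8.76 in B1, 8.55 in B2 and 31.1 in B3, with log2 ratios of 2.94 (2.82 to 3.07) and 1.85 (1.57 to 2.13). F2r was at 52.2, 48.7 and 104.0 CPM in ending A and at 22.4, 24.8 and 51.6 in ending B. A3 and B3 lay about 2-fold above the others, with log2 ratios of 1.04 (0.94 to 1.15) and 1.13 (0.94 to 1.32).

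The promoter letters of the genes with higher levels in A3 are given because Ednrb, Glp2r and F3 were higher in the third set of both endings and Ednra in that of ending A alone. RefSeq start sites (GRCm38.p6) were found for 7 of the 8 genes, and S1pr1 is named only. The 250 bases before the start are printed 5′ to 3′ on the gene's strand for the endothelin receptor pair, Glp2r and F3: chr14:103843702-103843951 (minus strand), chr8:77724453-77724702 (minus), chr11:67771154-67771403 (minus) and chr3:121723287-121723536 (plus). Capitals mark matches to an AP-1 motif (TGANTCA) or a GC box (GGGCGG) on either strand.
Ednrb: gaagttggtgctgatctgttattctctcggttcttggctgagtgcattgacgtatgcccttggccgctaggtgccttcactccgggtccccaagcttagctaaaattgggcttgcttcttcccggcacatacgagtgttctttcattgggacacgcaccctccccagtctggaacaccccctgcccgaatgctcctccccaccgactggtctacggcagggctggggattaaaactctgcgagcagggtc
Ednra: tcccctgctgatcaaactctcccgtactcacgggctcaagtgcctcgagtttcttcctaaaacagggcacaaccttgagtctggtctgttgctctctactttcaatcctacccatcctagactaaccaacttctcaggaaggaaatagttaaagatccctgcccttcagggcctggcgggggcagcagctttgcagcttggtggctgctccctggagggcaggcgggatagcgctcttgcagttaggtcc
Glp2r: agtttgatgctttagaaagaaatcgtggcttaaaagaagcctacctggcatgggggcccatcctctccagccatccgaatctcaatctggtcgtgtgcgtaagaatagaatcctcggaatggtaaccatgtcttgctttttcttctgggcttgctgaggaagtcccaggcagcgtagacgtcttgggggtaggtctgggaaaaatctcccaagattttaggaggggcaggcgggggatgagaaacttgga
F3: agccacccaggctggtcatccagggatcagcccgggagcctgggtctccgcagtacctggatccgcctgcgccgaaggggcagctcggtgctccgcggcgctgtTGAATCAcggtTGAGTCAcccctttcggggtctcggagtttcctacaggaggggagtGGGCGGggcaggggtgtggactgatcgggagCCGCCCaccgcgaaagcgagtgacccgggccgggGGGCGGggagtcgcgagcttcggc
The F3 window held 2 AP-1 matches and 3 GC boxes, and F2r (window chr13:95618467-95618716, minus strand) held 1 of each. The window of S1pr3, a gene lower in A3 and B3, held 1 GC box and no AP-1 match, and that of Adra2c held neither. Over the 32851 promoter windows of that length, 6.75% held an AP-1 match and 32.7% a GC box. The windows of Ednrb, Ednra and Glp2r held neither, nor a match to GLI (TGGGTGGTC, in 0.225% of windows), forkhead (TGTTTAC, 3.17%) or TCF (CTTTGAT, 3.21%) letters, and Ednra alone of the 3 held an E-box (CANNTG, 66.2%). A match describes letters and not a bound site. In the GENCODE annotation of the same build the Ednrb window lies inside a longer model of the gene that starts upstream. Glp2r overlaps Gas7 and Rcvrn there, Ednra 4933431K23Rik and S1pr3 Gm32834, each on the opposite strand, and no source used here says whether reads were counted by strand.

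Both sphingosine 1-phosphate receptor genes ran the other way. S1pr3 was at 108.7 CPM in A1, 103.1 in A2 and 19.3 in A3, and at 61.6 in B1, 63.7 in B2 and 10.8 in B3, which gave log2 ratios of -2.46 (-2.68 to -2.25) and -2.54 (-2.87 to -2.23). S1pr1 was lower in level, at 11.4, 9.20 and 5.01 CPM in ending A and 10.7, 9.88 and 3.14 in ending B, and its log2 ratios were -1.05 (-1.51 to -0.62) and -1.71 (-2.36 to -1.12). For both genes the third set was the lowest of its ending.

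The first and second sets of an ending give a spread between sets. No label says whether they differ by embryo or preparation, so this spread may hold no variation between animals. Over all genes tested, the median absolute log2 ratio of the first to the second set was 0.09 in each ending. Among the 8 genes it went beyond 0.4 only for Adra2c in ending A, at 0.89 (-1.91 to 4.36), and for Glp2r in ending B, at -0.45 (-0.84 to -0.05). A gene was called when the third set differed 2-fold or more, the same way, from the first and from the second set, among genes with at least 5 CPM in 1 of the 3 sets. All 8 genes entered in both endings. In ending A, 5 of the 8 were called higher (Ednrb, Ednra, Glp2r, F3 and Adra2c), against 11.8% of the 11241 genes tested, and S1pr3 alone was called lower, against 5.81%. In ending B, 5 were called higher (F2r in the place of Ednra), against 8.54% of 10415 genes, and S1pr3 and S1pr1 were called lower, against 5.98%. Since the genes were chosen from this contrast, nothing is read from these shares. Closest to the threshold were F2r in ending A, just outside with log2 ratios of 0.99 to the first set and 1.09 to the second, S1pr1 in ending A, just outside with -1.19 and -0.88, and F2r in ending B, just inside with 1.20 and 1.06. The median log2 ratio of all genes tested was -0.01 in ending A and 0.14 in ending B.

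**Figure D2:**
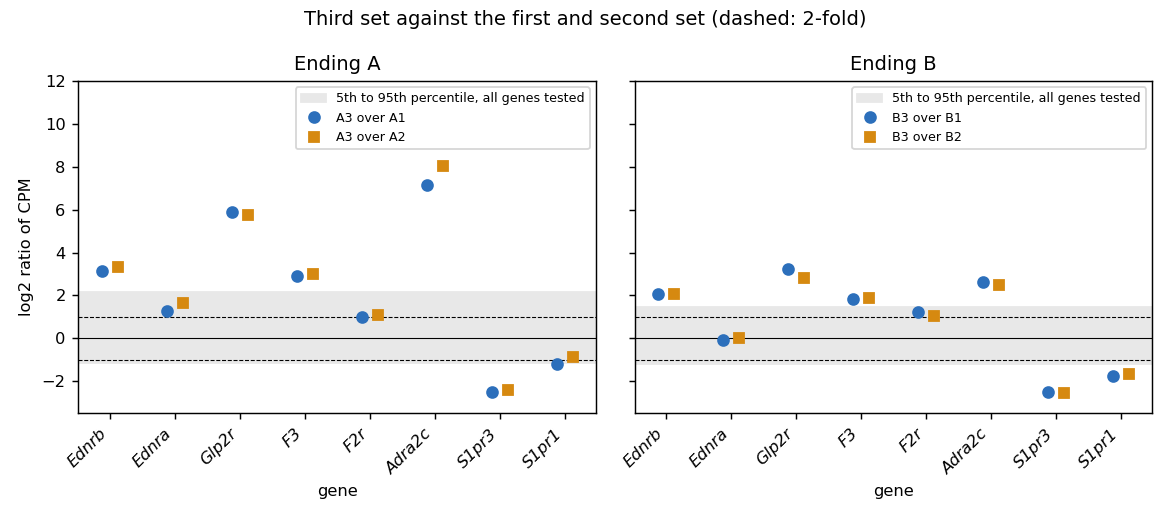
Log2 ratio of the third set's CPM to that of the first set (circles) and of the second set (squares) for each gene, by ending; dashed lines mark 2-fold and the grey band runs from the 5th to the 95th percentile of the ratio to the first set over all genes tested. Both ratios of Ednrb, Glp2r, F3, Adra2c and S1pr3 lie outside the band in each ending, and both ratios of S1pr1 in ending B.

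Transcripts of other cell types also differed between these sets, and their part in the values of this contrast, for the 8 genes and for the lists below, was not tested. Between A1 or A2 and A3, the summed level of 5 enterocyte transcripts, taken as a measure of free RNA, went from 491 and 472 to 2325 CPM, that of 6 epithelial markers from 43.1 and 40.8 to 294, of 6 endothelial markers from 8.62 and 8.68 to 53.2, and of 6 myeloid markers from 14.5 and 16.3 to 113. In ending B the same sums went from 35.0 and 32.0 to 55.6, from 28.5 and 32.5 to 83.3, from 19.3 and 16.6 to 48.8, and from 33.1 and 25.9 to 73.1 CPM, and 5 erythroid transcripts from 1846 and 1786 to 3700 CPM. Enteric neuron markers (5 genes) were lower in A3 and B3, at 4.69 against 30.1 and 31.6 CPM in ending A and at 1.33 against 81.4 and 82.5 in ending B. Smooth muscle markers (6 genes) were lower as well, at 553 against 1548 and 1602 CPM in ending A and at 228 against 1140 and 1125 in ending B. With mitochondrial, hemoglobin and enterocyte genes left out of the totals, 6 of the 8 genes were called higher in ending A in place of 5, and the other numbers called were the same.

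To see which cells carried the receptors, cells of each ending were clustered without the 8 genes and the pathway genes described below. Clusters with at least 3 of 8 fixed markers of PDGFRA-high mesenchyme at 2-fold or more were given that name (1118 cells in ending A and 2961 in ending B), and those in which 3 or more mesenchyme markers reached 100 CPM were called other mesenchyme (4483 and 3856 cells). The 141 and 129 remaining cells stayed unnamed. PDGFRA-high mesenchyme made up 1.78% of cells in A1, 1.77% in A2 and 87.5% in A3, and 19.5%, 20.4% and 91.4% in B1, B2 and B3. No cluster passed the naming rule for an epithelial, endothelial or other cell type outside the mesenchyme. The nearest was cluster 13 of ending B, only 13 cells led by Rgs1, Srgn, Lyz2 and Tyrobp, genes known from white blood cells. Ednrb was at 166 CPM (98.4 to 262) there, and after thinning 4 of the 13 cells had an Ednrb UMI (30.8%, 9.09 to 61.4) at a median depth of 8350 UMIs. Glp2r had no UMI in these cells, which allows up to 27.7 CPM. In the other mesenchyme of B1 and B2 the thinned share was 24.8% and 26.0%, at median depths of 4373 and 4314 UMIs. The interval of Ednrb there takes in the 220.9 and 225.2 CPM of other mesenchyme in B1 and B2, so at this depth those levels could not be told from that cluster's.

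Within single sets, Ednrb divided by class in the same direction as between sets. In A1, 44 PDGFRA-high cells held Ednrb at 2344 CPM (2187 to 2509) and 2381 cells of other mesenchyme held it at 164.9 (160.4 to 169.6). The pair of values was 1791 and 157.2 CPM for A2 and 2004 and 224.7 for A3. For ending B it was 1389 and 220.9 (B1), 1316 and 225.2 (B2), and 1769 and 1100 (B3). PDGFRA-high cells were the higher in every set, by the least in B3. The log2 ratio between the classes was 3.83, 3.51 and 3.16 in A1 to A3 and 2.65, 2.55 and 0.69 in B1 to B3.

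The class ratio of Glp2r was above that of Ednrb in each of the 6 sets, with overlapping intervals in A3 and B3. It was at 107.2 CPM (75.8 to 147) in the PDGFRA-high cells of A1 and at 0.83 (0.54 to 1.23) in the other mesenchyme, at 142.7 and 0.78 in A2, and at 158.9 and 14.8 in A3. In ending B the values were 46.1 and 2.31 in B1, 55.6 and 3.80 in B2, and 91.8 and 39.4 in B3. Thinned to 2000 UMIs, 13.6% of PDGFRA-high cells of A1 (5.17 to 27.4) had a Glp2r UMI against 0.168% of other mesenchyme (0.046 to 0.43), at median depths of 7455.5 and 12173 UMIs before thinning. Glp2r was thus found in the shallower class. Adra2c had no UMI in the other mesenchyme of A1 and A2, which allows up to 0.0514 CPM there, and 6 UMIs in the 81 PDGFRA-high cells of both sets (8.77 CPM). In B1 and B2 it had 2 UMIs in other mesenchyme and 30 in PDGFRA-high cells, a log2 ratio of 6.24 (4.26 to 9.35).

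F3 was at 197.4 CPM in the PDGFRA-high class of A1 and 15.0 in the other mesenchyme, at 218.6 and 13.7 in A2, and at 28.8 and 4.98 in B1 and 33.0 and 3.80 in B2. F2r differed by less, with log2 ratios between the classes of 1.13 in A1, 1.06 in A2, 1.10 in B1 and 1.09 in B2. Ednra was higher in PDGFRA-high cells in ending A but not in ending B, a difference that was not tested. Its log2 ratio was 0.70 (0.15 to 1.20) in A1, 1.38 (0.87 to 1.86) in A2 and 1.51 (1.08 to 1.98) in A3, but 0.16 (-0.14 to 0.45) in B1, 0.04 (-0.25 to 0.32) in B2 and -0.71 (-1.04 to -0.36) in B3. S1pr3 was lower in PDGFRA-high cells in each set, with ratios from -4.32 in B3 to -1.52 in A2. S1pr1 ratios were -3.33 (-6.39 to -1.44) in B1 and -2.83 (-5.13 to -1.24) in B2, and intervals in the other sets reached across 0.

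With A3 and B3 set aside, PDGFRA-high cells differed 2-fold or more from other mesenchyme for all 8 genes in ending A, 6 higher and 2 lower, where 14.4% and 12.1% of all genes were called. In PDGFRA-high cells of A1 and A2, S1pr1 rested on 1 UMI (log2 ratio -2.85, interval -8.16 to -0.37) and Adra2c on 6. The intervals of Ednra (1.03, 0.66 to 1.37) and F2r (1.10, 0.74 to 1.43) reached below 2-fold. In ending B, 5 were higher and 2 lower, against 8.66% and 9.43%, and the interval of F2r (1.09, 0.80 to 1.38) again reached below 2-fold. With A3 and B3 kept, the numbers for the 8 genes were the same, and the shares over all genes were 14.4% and 9.84% in ending A and 11.4% and 8.88% in ending B. A class of clusters set against the rest is no test, and these counts describe where the transcripts lay.

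**Figure D3:**
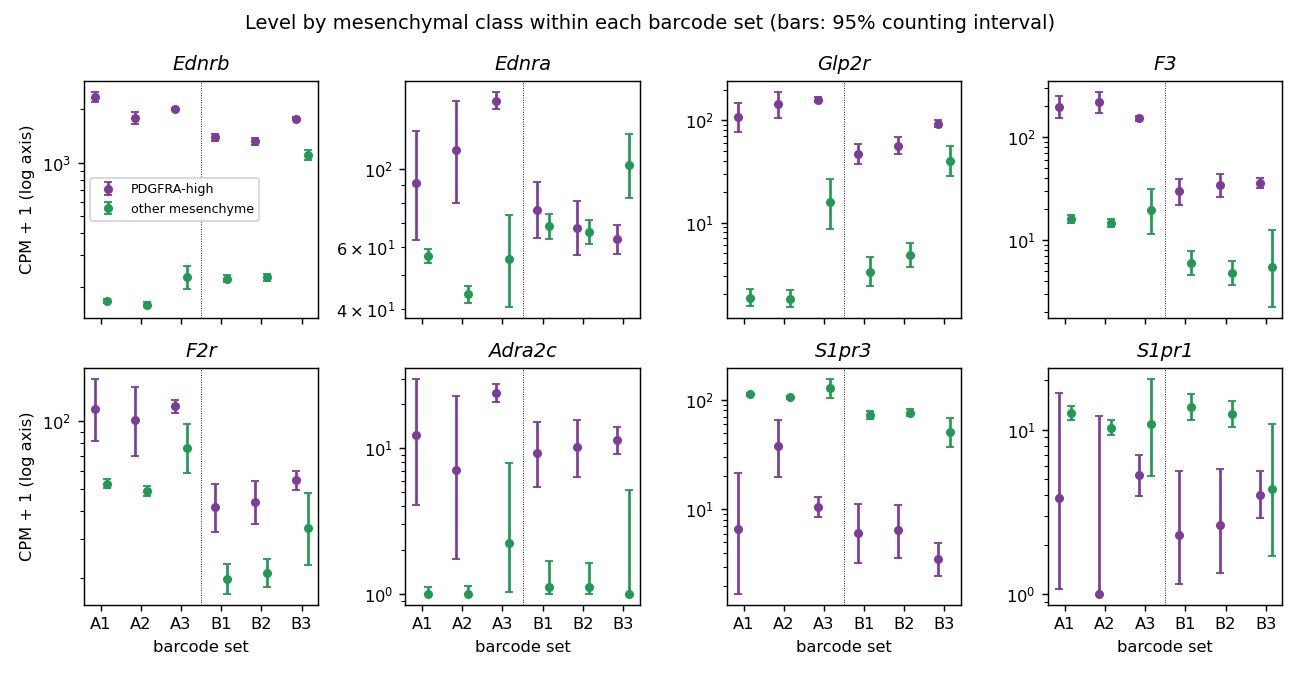
Level of each gene in PDGFRA-high mesenchyme (purple) and other mesenchyme (green) within each barcode set, as CPM plus 1 on a log axis, with 95% Poisson intervals. Ednrb, Glp2r, F3, F2r and Adra2c are higher in PDGFRA-high cells in every set, S1pr3 is lower in every set, and Ednra differs by ending.

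Set against each other within PDGFRA-high mesenchyme alone, the sets were closer. The log2 ratio of A3 to A1 and A2 was -0.05 (-0.13 to 0.03) for Ednrb, -0.45 (-0.71 to -0.19) for F3, 0.35 (0.04 to 0.69) for Glp2r, 0.11 (-0.23 to 0.48) for F2r and 0.62 (0.27 to 0.99) for Ednra. For B3 over B1 and B2 it was 0.39 (0.34 to 0.44) for Ednrb, 0.17 (-0.17 to 0.51) for F3, 0.84 (0.60 to 1.09) for Glp2r and -0.19 (-0.42 to 0.04) for Ednra. Only Adra2c in ending A, at 1.38 (0.23 to 2.85) and with 6 UMIs in A1 and A2, and S1pr3 in ending B, at -1.09 (-2.11 to -0.06), were called within that class, of 7 receptor genes that entered in each ending. Over all genes, 3.58% were called higher and 1.82% lower there in ending A, and 1.10% and 0.756% in ending B. The sets drew the class from its clusters in different shares: cluster 2 of ending B, low in Glp2r, held 44.9% of the PDGFRA-high cells of B1 and B2 and 27.0% of those of B3, and cluster 4, high in Glp2r, held 13.6% and 20.2%. In ending A, cluster 0 held 58.0% of the class in A1 and A2 and 65.4% in A3, and cluster 10, high in F3, held 30.9% and 17.1%. Within other mesenchyme, Glp2r kept a large ratio, 4.20 (3.15 to 5.14) in ending A and 3.67 (3.02 to 4.32) in ending B, and Ednrb was at 0.48 (0.26 to 0.69) and 2.30 (2.20 to 2.40). Glp2r was the one receptor gene called in ending A, of 7 that entered, where 6.13% of all genes were called higher and 3.36% lower. In ending B, Glp2r and Ednrb were called higher and S1pr1 lower, of 6, against 7.98% and 3.99% of all genes. A3 and B3 had only 64 and 170 cells in that class, with 12 and 35 Glp2r UMIs. The part of free RNA in these values was not tested. In ending B the third set's share was largest in cluster 9 (30.4% of its cells, led by Ube2c and Prc1, genes of dividing cells), where Ednrb was at 1110 CPM.

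Among PDGFRA-high clusters the receptors were not spread alike. Glp2r, Ednra and Adra2c were highest together in cluster 0 of ending A (725 cells) and in cluster 4 of ending B (536 cells), and Npnt, AW112010 and Slco2a1 led the genes of both clusters. Glp2r was at 232 and 184 CPM there, Ednra at 204 and 130, and Adra2c at 36.3 and 28.4. A second PDGFRA-high cluster, cluster 10 of ending A (202 cells, led by Opcml and Sfrp2), held the highest Ednrb (2479 CPM), F3 (242 CPM) and F2r (156 CPM) of the 16 clusters with at least 50 cells in that ending, but Glp2r was at 65.6 CPM, Ednra at 57.8 and Adra2c at 1.43. Another, cluster 11 of ending A (191 cells, led by Bmp3), had Ednrb at 1317 CPM with Glp2r at 33.7 and F3 at 24.5. In ending B, cluster 2 (969 cells, led by Gadd45a) likewise had a high Ednrb (1405 CPM) beside low values of Ednra (30.3) and Glp2r (27.2).

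Outside the PDGFRA-high class, Ednrb ranged from 64.3 to 657 CPM over the clusters of other mesenchyme with at least 50 cells in ending A and from 54.7 to 1110 in ending B. In ending B, cluster 3 (641 cells, led by Ccl11 and Kcnk2) held Ednrb at 759 CPM and Ednra at 106. Ednra was second highest in ending A in cluster 15 (56 cells, led by Igfbp3 and Col18a1), at 148 CPM, where Glp2r was at 6.84 and F3 at 2.28. Among clusters with at least 50 cells, S1pr1 peaked in those led by Ogn, a matrix proteoglycan gene, at 24.8 CPM in ending A and 23.3 in ending B, and S1pr3 was at 164 and 106 CPM in those clusters.

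**Figure D4:**
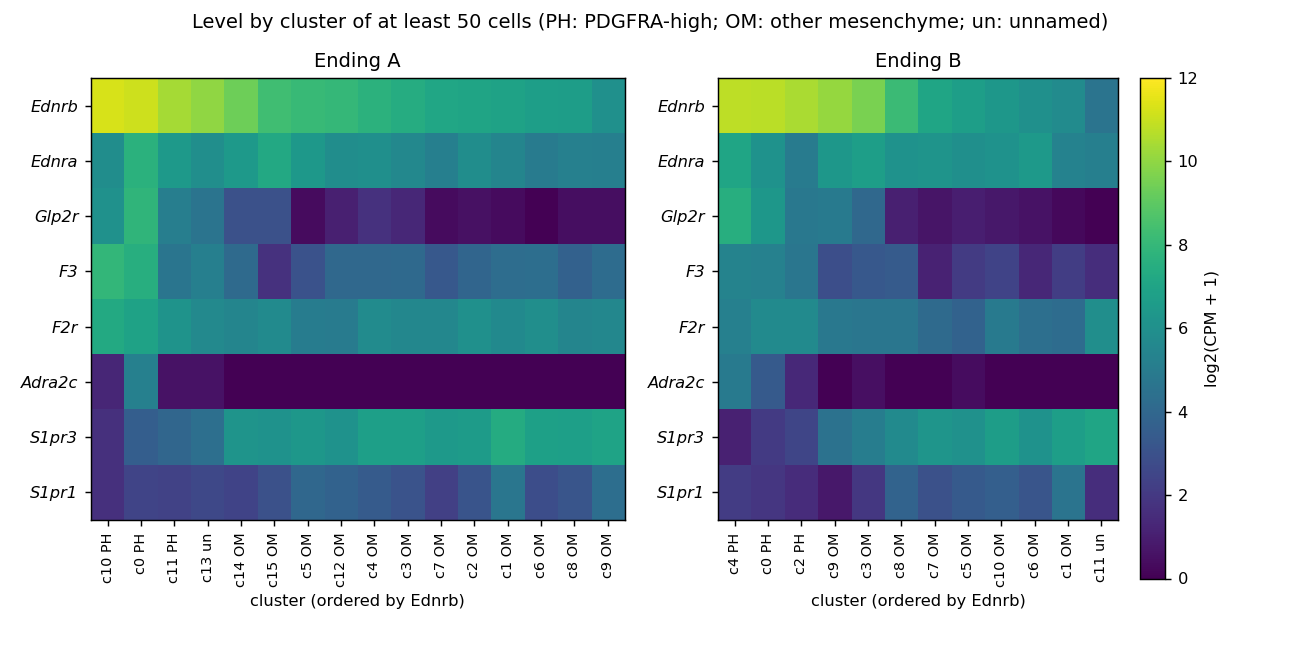
Level of each gene as log2(CPM + 1) in every cluster of at least 50 cells, ordered by Ednrb from left to right; PH marks PDGFRA-high mesenchyme, OM other mesenchyme and un unnamed clusters. Glp2r and Adra2c are bright in few clusters at the left, S1pr3 darkens toward the left, and Ednra is spread over most clusters.

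Across those clusters, the genes whose log2(CPM + 1) followed each receptor most closely were found among 7341 genes, by the lower Pearson r of the endings (16 clusters in A, 12 in B). These clusters share libraries and depth, and r is given as a description. Ednrb ran with Enho (0.97), with Ptch1 (0.97), the receptor and a target of Hedgehog signals, and with Tcf4 (0.96). Glp2r ran with Lama5 (0.97), which codes for a basement membrane laminin chain, with St5 (0.96) and with Chst1 (0.96). Adra2c ran with 4930426D05Rik (0.93), Ptprr (0.92) and Lxn (0.92), and F3 with Scd2 (0.90), Cpxm2 (0.90) and Pcnx (0.89). S1pr3 ran with Lgi2 (0.94), Dlk1 (0.93) and Timm17b (0.92), and S1pr1 with Rspo2 (0.88), a secreted amplifier of Wnt signals, Edil3 (0.87) and Gpx7 (0.87). Ednra and F2r had looser companions: Sept4 (0.82), Pde4a (0.81) and Pcsk5 (0.79) for Ednra, and Cgrrf1 (0.84), Vps13a (0.84) and Zmiz1 (0.84) for F2r. Among the receptors themselves, Glp2r and Ednrb had r of 0.94 in both endings, Ednra and Ednrb 0.67 in A and 0.37 in B, and Ednrb and S1pr3 -0.91 and -0.90.

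In single cells thinned to 2000 UMIs, Glp2r transcripts lay almost wholly in cells that also had an Ednrb transcript. Of the cells with a Glp2r UMI, 11 of 11 had one of Ednrb in A1 (100%, interval 71.5 to 100), 12 of 15 in A2 (80.0%, 51.9 to 95.7) and 257 of 270 in A3 (95.2%, 91.9 to 97.4). For B1 these were 46 of 48 cells (95.8%, 85.7 to 99.5), for B2 67 of 74 (90.5%, 81.5 to 96.1) and for B3 315 of 331 (95.2%). Cells without a Glp2r UMI had Ednrb in 23.4%, 24.4%, 88.8%, 36.8%, 37.1% and 91.7% of cases. Cells with both genes were 4.21 times the product of the single shares in A1, 3.23 times in A2, 2.52 in B1 and 2.34 in B2. In A3 and B3, where nearly all cells had Ednrb, that ratio was 1.05 and 1.03. Among cells with Ednrb, 1.88%, 2.32% and 24.1% had Glp2r across A1, A2 and A3, and 5.46%, 6.90% and 15.6% across B1, B2 and B3. At this depth Glp2r had a mean of only 0.287 UMIs per A3 cell and 0.182 per B3 cell. Low shares therefore follow from its level and the depth, and they do not show how many Ednrb cells lacked Glp2r.

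Ednra and Ednrb, by contrast, met in single cells with ratios close to 1. Cells with both were 1.11 times (0.85 to 1.42) the product in A1, 1.11 times (0.81 to 1.47) in A2 and 1.03 times (0.92 to 1.16) in A3. For B1 the value was 1.11 (0.91 to 1.35), for B2 1.03 (0.85 to 1.24) and for B3 1.02 (0.89 to 1.15), and all 6 intervals held 1. The B2 value was 1.35 with another random draw of the thinning, outside that interval, and at 3000 UMIs per cell the values of A1, A2, B1 and B2 ran from 1.15 to 1.23, so a small excess was not settled at this depth. At this depth Ednra was found in 8.20% to 25.8% of cells, and departures inside those intervals were not detectable. Glp2r and Ednra met more often than the product in A3 and B3, 1.38 times (1.12 to 1.68) in A3 and 1.47 times (1.11 to 1.91) in B3, and Glp2r with Adra2c 1.80 times (1.12 to 2.76) in A3 but 1.04 times (0.38 to 2.27) in B3.

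Ednrb and S1pr3 met less often than their shares give in 4 sets: the ratio was 0.76 (0.597 to 0.945) in A1, 0.80 (0.63 to 1.004) in A2 and 0.59 (0.37 to 0.90) in A3. For B1 it was 0.42 (0.30 to 0.57), for B2 0.47 (0.35 to 0.63) and for B3 0.76 (0.46 to 1.19), and the intervals of A2 and B3 held 1. Read by Ednrb count, S1pr3 was found in 14.7% of B1 cells with no Ednrb UMI, 5.66% with 1 to 2 and 3.17% with 3 to 5. In B2 the same groups gave 14.2%, 7.12% and 1.54%. Glp2r ran the other way, at 0.146%, 4.53% and 7.14% in B1 and 0.455%, 3.97% and 11.4% in B2. Ednra was at 10.4%, 12.1% and 10.7% in B1 and 11.2%, 11.1% and 13.9% in B2. With at least 6 Ednrb UMIs it was at 23.0% (13.2 to 35.5) of 61 cells in B1, above the interval of the cells with none there (8.87 to 12.2), and at 4.65% (0.568 to 15.8) of 43 cells in B2, so the sets did not share a direction. In A3, where 115 cells had no Ednrb UMI, S1pr3 was in 16.5% of these and in 1.34% of cells with at least 6.

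**Figure D5:**
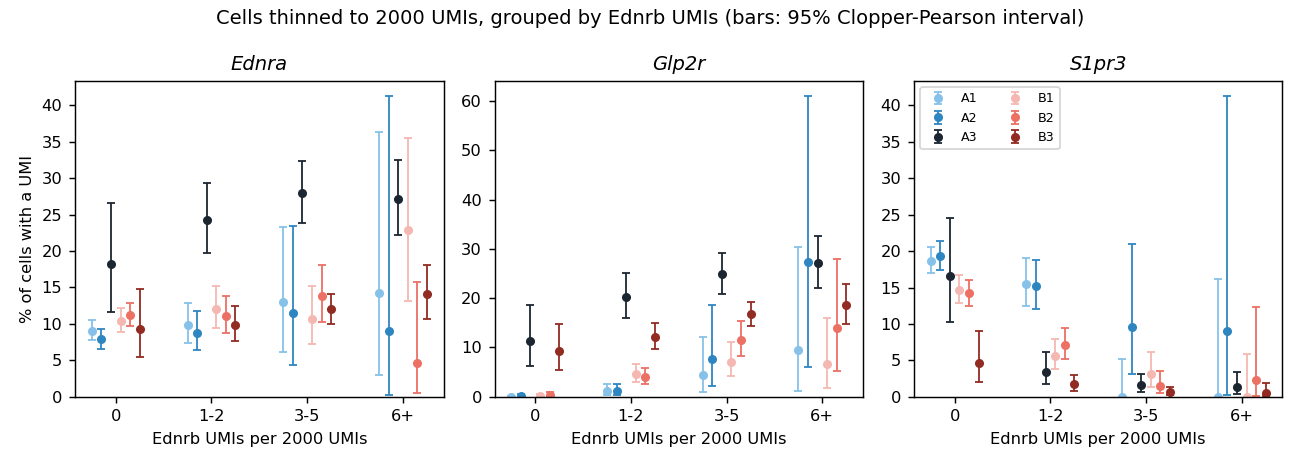
Share of cells with a UMI of Ednra, Glp2r or S1pr3, among cells thinned to 2000 UMIs and grouped by their number of Ednrb UMIs, for each barcode set, with 95% Clopper-Pearson intervals. From 0 to 3-5 Ednrb UMIs the Glp2r share is higher at each step in all 6 sets, the S1pr3 share is lower in 6 of 6 between the ends of that range, and the Ednra share lies between 7.90% and 27.9%.

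Cells of single sets were also split by their Pdgfra UMIs, and in ending B Ednrb followed Pdgfra. Ednrb was found in 31.7% of B1 cells with no Pdgfra UMI, 65.1% with 1 and 80.3% with at least 2, and in B2 in 32.1%, 57.4% and 90.2%. In A1 the shares were 22.9%, 21.2% and 44.9% and in A2 24.1%, 26.6% and 30.7%, so that in ending A the intervals of cells with 0 and with 1 Pdgfra UMI overlapped. Glp2r went from 1.37% to 5.71% and 6.58% (2.17 to 14.7) in B1 and from 1.74% to 4.79% and 17.1% (10.9 to 24.9) in B2. In A1 it was at 0.333%, 0% (0 of 529 cells, interval 0 to 0.695) and 3.68%, and in A2 at 0.483%, 1.41% and 2.67%. Ednrb was also less often found in cells with a UMI of Mki67 or Top2a, genes of dividing cells, in 4 sets: 81.4% against 92.5% in A3, 27.8% against 43.0% in B1, 30.5% against 42.4% in B2 and 74.8% against 94.0% in B3. In A1 (24.5% and 23.1%) and in A2 the intervals overlapped.

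Of the 6 receptor and cofactor genes that were highest in A3, at least 3 were found together in 23.5% of A3 cells and 6.39% of B3 cells, against 0.89%, 0.91%, 1.31% and 1.44% in A1, A2, B1 and B2. The 6 genes were picked by their level in A3, so a higher number per cell there follows from the choice. No gene of the 6 was found in 5.75% and 5.48% of cells of A3 and B3 and in 51.6% to 61.2% of cells of the other sets.

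The genes around each receptor were counted from fixed lists by the same 2-fold call, without the 8 genes; where a gene named below has under 20 CPM in every set, or falls between the extremes of its list, it was named after its values were seen because the count was small. Over all genes tested, that call gave 11.8% higher and 5.81% lower in ending A, and 8.54% and 5.98% in ending B. Each list count below is to be set beside these shares. Several lists rest on few genes, and no list was tested. In the endothelin list, 3 of 4 genes tested were higher in A3 and 1 of 2 in B3, with median log2 ratios of 1.54 and 1.18. Ece1, which codes for the converting enzyme, was at 54.4, 51.4 and 188.2 CPM in A1, A2 and A3 and at 34.5, 38.1 and 105.5 in B1, B2 and B3. The ligand gene Edn1 was at 0.55, 0.62 and 13.7 CPM in ending A and at 3.64, 3.56 and 6.41 in ending B, and Mme, which codes for a peptide-degrading protease, was at 4.25, 3.26 and 8.95 CPM in ending A. Edn3, the ligand gene known from enteric nervous system formation, was at 9.20, 10.2 and 7.88 CPM in ending A and was not called.

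In the list around GLP-2, 5 of 7 genes tested were higher in A3 and 2 of 4 in B3, where 1 was lower; the medians were 3.41 and 0.41. Gcg, the precursor gene of epithelial endocrine cells, was at 1.32, 1.18 and 13.3 CPM in ending A and 1.87, 0.71 and 7.37 in ending B, and the epithelial marker sums given above moved with it. Ereg, a growth factor gene, was at 1.87, 1.87 and 31.5 CPM in ending A and 1.97, 2.05 and 6.29 in ending B. Areg, Fgf7 and Dpp4 completed the 5 in ending A, with log2 ratios of 4.30, 4.52 and 1.75. Igf1 was lower in B3 (35.3 against 110 and 114 CPM, log2 ratio -1.66) and at 61.2 against 88.1 and 84.8 CPM in ending A, where it was not called.

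The list of thrombin and tissue factor genes had 6 of 10 higher and 1 lower in A3 (median 1.69), and 4 of 9 higher in B3 (median 0.96). Thbd, coding for thrombomodulin, which turns thrombin toward anticoagulation, was at 39.1, 34.7 and 288.7 CPM in ending A and 100.1, 109.5 and 337.1 in ending B. F2rl1, the gene of a related protease-activated receptor, was at 2.16, 2.40 and 28.7 CPM in ending A and 8.07, 6.68 and 27.3 in ending B. Plau, coding for urokinase, had log2 ratios of 4.97 and 2.17, and Procr, the protein C receptor gene, 1.97 and 1.01. Plaur, the urokinase receptor gene, was lower in A3 (-1.99). Tfpi and Serpine2, which code for inhibitors of tissue factor and of thrombin, were not called in either ending, with log2 ratios of 0.40 and 0.20 for Tfpi and -0.43 and -0.02 for Serpine2.

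Among adrenergic genes, 2 of 5 were higher in A3 (Adrb1 and Maob, median of the list 0.34), and in B3 Adrb1 was higher and Ddc lower of 4 tested (median 0.07). Adrb1, the beta-1 receptor gene, was at 4.70, 5.00 and 17.7 CPM in ending A and 5.21, 5.88 and 16.1 in ending B, while Maoa, which codes for an enzyme that breaks down catecholamines, was not called. Of the sphingosine phosphate genes, 1 of 8 was higher and 1 lower in A3, and 1 and 1 of 7 in B3 (medians 0.53 and 0.51). These are counts of single genes, and nothing is read from them beside the shares over all genes. Plpp3, which codes for a phosphatase of lipid phosphates, was at 97.3, 103.9 and 407 CPM in ending A and 100.4, 112.2 and 262.5 in ending B. S1pr2, another receptor gene of the family, was called lower in both endings, at 40.3, 42.8 and 17.0 CPM and at 28.6, 29.7 and 13.7 CPM.

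Other peptide receptors were higher in 8 of 13 genes tested in A3 and none was lower, and in B3 4 of 10 were higher (Bdkrb2, Ramp1, Aplnr and Npr2) and 1 lower (Vipr2), with medians of 1.46 and 0.96. Bdkrb2, the bradykinin receptor gene, was at 2.77, 2.43 and 74.6 CPM in ending A and 10.0, 11.1 and 72.3 in ending B. Ramp1, coding for a partner protein of the receptor for calcitonin gene-related peptide, was at 4.50, 3.96 and 99.7 CPM and at 27.3, 28.6 and 144.7 CPM, whereas Calcrl, the gene of that receptor, was at 39.4, 34.4 and 19.2 CPM in ending A, short of the call. In the G protein signalling list, 9 of 31 were higher and 3 lower in A3 (Rgs5, Plcb1 and Plcb4), and 8 of 27 higher and Rgs5 lower in B3, with medians of 0.24 and 0.46. Gnao1, which codes for an inhibitory G protein subunit, had log2 ratios of 2.77 and 1.82, Rgs10, coding for a protein that shortens G protein signals, 2.40 and 1.82, and Rgs5, known from pericytes, -2.48 and -1.55.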

How the data were processed

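The authors deposited 1 matrix of raw UMI counts per gene and cell for all samples, whole numbers with gene symbols and no identifiers. Cells were marked with lipid-bound barcodes (MULTI-seq) and captured with the 10x v3 chemistry for transcript ends, per the labels' protocols. Cell Ranger 2.1.1, Seurat and the build mm10 are named in the submitters' processing notes, with no role given; no source used here names a filter applied before deposit.

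Cells with fewer than 1000 genes (108) or more than 5% mitochondrial UMIs (367, counted separately) were left out, which removed 439 of 13127 cells. Summed counts were scaled to CPM and given with exact Poisson intervals (scipy 1.17.1), shares of cells with exact Clopper-Pearson intervals, and ratios with exact conditional binomial intervals. The limit for a count of 0 was 3 counts of the total. Cells were thinned to 2000 UMIs without replacement. Clusters were made per ending (scanpy 1.11.5, leidenalg 0.10.2; 2000 variable genes, 30 components, 15 neighbours, resolution 1), without 162 genes of the lists; the markers were fixed and the scoring rule was set after the data were seen. Scrublet called 65 doublets (0.512%), fewest in A2 (0.096%), so doublets may remain; all cells were kept. No count model was fitted, since a pooled matrix has no replicates. The ratio step was run on simulated data for the third set of ending A. Of 200 genes altered among 10274, 100% came out in the right direction and 96.5% of their true ratios fell inside the interval. The counts were drawn from a Poisson model, as the interval assumes, and every planted change was well beyond 2-fold. These figures check the calculation and not how well the interval covers the spread of real cells.

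The genes, lists and rules were chosen with earlier results of these data known. Named are the 8 genes, of each list the 2 largest and 2 smallest ratios per ending among genes with at least 20 CPM in 1 set, and 3 genes of highest likeness per receptor. Alternatives were other cell filters, CPM minimums, folds, sets, thinning and clustering settings.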

Additional observations from a re-analysis of the deposited data

How the results depend on the processing

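No paired analysis was possible because the pooled matrix has no map from cells to samples. Recomputed under the alternatives, 35 counts of genes called between sets stayed near the value reported and 13 moved, all 12 counts between classes stayed, and of the co-detection ratios 47 stayed and 1 moved. Where a setting could alter them, 90 log2 ratios of single genes stayed within their interval; the others moved, and in 4 the sign of a called gene changed. Of 8 shares of cells with Ednrb by Pdgfra count, 4 moved with thinning to 3000 UMIs. The number of receptor genes called lower in ending A went from 1 to 2 with the mean of per-cell CPM, a 1.5-fold call, the second set left out, or only cells with no Mki67 or Top2a UMI, and that in ending B from 2 to 1 with at least 20 CPM required, which also left out Adra2c, so that 4 genes were higher in each ending. F2r joined the genes called higher in ending A, 6 in place of 5, with the mean of per-cell CPM, a 1.5-fold call, no cell filter, the first set left out, or cells with no Mki67 or Top2a UMI. Within PDGFRA-high cells alone, a comparison added after seeing the data, ending A had 1 gene higher and 0 lower, and ending B 0 higher and 1 lower, of 7 that entered; within other mesenchyme, also added, ending A had 1 higher and 0 lower, and ending B 2 higher and 1 lower, of 7 and 6. Within PDGFRA-high cells the log2 ratio changed sign for Ednrb (-0.052) and F3 (-0.45) in ending A and for S1pr1 in ending B (1.05) and in ending A (1.55, interval -1.03 to 6.90; not called before), and within other mesenchyme for S1pr3 in ending A (0.24) and, near 0 before, Ednra in ending B (0.61). The Ednra ratio of ending B was also 0.03 without the first set. Cells with both Ednra and Ednrb in B2 were 1.35 times the product of shares with another thinning seed. The causes were not tested. The clustering resolutions tried, 0.5 and 1.5, and leaving out the third sets kept the number of genes 2-fold apart between classes. Class values rest on 37 to 64 cells where a class is rare in a set of ending A.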
